A study of Drosophila melanogaster with 7 samples.

Results

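The transcripts of the mitochondrial genome were followed across 7 midgut libraries of Drosophila melanogaster. Members were all features whose name begins with mt: and whose identifier is a FlyBase gene number in the deposited table that pairs transcripts with genes. This rule used no measured value and gave 38 of 24204 features: 13 mRNAs, 2 ribosomal RNAs (rRNAs), 22 transfer RNAs (tRNAs) and the control region mt:ori. The study asked how the oxygen in which adult flies live affects upkeep of the midgut, the digestive and absorptive part of the gut. All groups shared 1 strain, sg-Gal4,UAS-GFP in the labels, and all flies were virgin females sampled at day 53. The groups were flies kept in sealed cabinets at 10% oxygen (3 libraries), 20% oxygen (3 libraries) and 40% oxygen (1 library). In the labels, batch 2 holds replicate 3 at 10%, replicate 3 at 20% and the 40% library, and batch 1 holds replicates 1 and 2 at 10% and 20%. What the batch stands for, which cells the Gal4 driver marks and whether animals were pooled are not given in the labels. Separate animals per replicate are not stated either; each p-value below therefore reflects spread among libraries that could be partly or wholly technical.

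The mitochondrial genome is a small circle that encodes core subunits of the respiratory chain and of ATP synthase, together with the rRNAs and tRNAs that translate them inside the organelle. Long precursor RNAs are made from both strands and are cut into single messages, mostly at the tRNAs that lie between the genes. In the gut these enzymes supply ATP to absorptive cells, stem cells and the muscle around the epithelium, and complex IV is the step at which oxygen is consumed.

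Total counts were 19.22 to 22.22 M (M for mega) per library, of which 5.73 to 7.49 M in batch 2 and 20.64 to 21.22 M in batch 1 were not mitochondrial. All 19 matched midgut markers had more than 3 counts in every library. The batches stood apart in tissue markers, and because each oxygen comparison rests on them the values are given here as counts per M non-mitochondrial counts. Summed muscle markers (16 of 16 detected in every library) stood at 20474, 20227 and 18631 in batch 2 at 10%, 20% and 40% oxygen, against 1376 to 1780 in batch 1. Summed tracheal markers (7 or 8 of 8 matched genes detected) stood at 256 to 279 in batch 2 and 21.7 to 24.0 in batch 1. Summed midgut markers stood at 68824, 66320 and 44716 in batch 2 at 10%, 20% and 40% oxygen, against 101837 to 111998 in batch 1. Effective lengths imply a mean fragment of 229 to 254 bases in batch 2 libraries, against 272 to 280 bases in batch 1 libraries. The part these differences play in the values below was not tested. In bulk samples, more cells rich in mitochondria and more mitochondrial RNA per cell cannot be told apart.

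Of the 38 members, 15 had any count and 14 had at least 10 counts in a library and passed the expression filter. The 22 tRNAs, 62 to 72 bases long, and mt:ori, 4608 bases long, had 0 counts in all 7 libraries. A count of 0 allows a level of up to 3 counts, which was 0.135 to 0.156 counts per M counts, and these limits cover counting error only. The mRNA mt:ATPase8, which encodes a small subunit of the membrane part of ATP synthase, had 0 to 7 counts and was not tested. Its annotated length is 162 bases and its effective length, the number of positions at which a fragment could start, was 6.99 to 8.10 bases. It overlaps mt:ATPase6 by 7 bases.

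The genes lie close together. Identifiers are FlyBase gene numbers, and positions are on the sequence named mitochondrion_genome of assembly BDGP6.54. On the plus strand lie mt:ND2 (FBgn0013680, 240 to 1263), mt:CoI (FBgn0013674, 1474 to 3009), mt:CoII (FBgn0013675, 3083 to 3767), mt:ATPase8 (FBgn0013673, 3907 to 4068), mt:ATPase6 (FBgn0013672, 4062 to 4736), mt:CoIII (FBgn0013676, 4736 to 5524), mt:ND3 (FBgn0013681, 5608 to 5961), mt:ND6 (FBgn0013685, 9971 to 10495) and mt:Cyt-b (FBgn0013678, 10499 to 11635). On the minus strand lie mt:ND5 (FBgn0013684, 6409 to 8125), mt:ND4 (FBgn0262952, 8207 to 9545), mt:ND4L (FBgn0013683, 9545 to 9835), mt:ND1 (FBgn0013679, 11721 to 12659), mt:lrRNA (FBgn0013686, 12735 to 14058) and mt:srRNA (FBgn0013688, 14131 to 14916). The control region mt:ori (FBgn0013687, 14917 to 19524) adjoins mt:srRNA and closes the circle. Besides the pair mt:ATPase8 and mt:ATPase6, the genes mt:ATPase6 and mt:CoIII and the genes mt:ND4 and mt:ND4L overlap by 1 base. How reads that span neighbouring genes were assigned is not given in the sources used here.

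Levels are given first in TPM (transcripts per M transcripts), which is per length and allows genes to be compared. The large rRNA mt:lrRNA, the RNA core of the large subunit of the mitochondrial ribosome, was the highest member in every library. It stood at 282020, 291204 and 310383 TPM in batch 2 at 10%, 20% and 40% oxygen, against 17769 and 19774 TPM in batch 1 at 10% and 16484 and 18667 TPM in batch 1 at 20%. The small rRNA mt:srRNA, its counterpart in the small subunit, stood at 179, 388 and 197 TPM in batch 2 at 10%, 20% and 40% oxygen. In batch 1 it stood at 15.4 and 14.8 TPM at 10% and 9.15 and 10.7 TPM at 20%. The ratio of large to small rRNA in TPM was therefore 751 to 1575 in batch 2 and 1156 to 1801 in batch 1, in libraries that the labels call mRNA libraries.

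Complex IV, cytochrome c oxidase, contributed the highest mRNAs. The message mt:CoIII, a core subunit, had 48680, 43663 and 50826 TPM in batch 2 at 10%, 20% and 40% oxygen, against 6737 and 7624 TPM in batch 1 at 10% and 6539 and 7413 TPM in batch 1 at 20%. The message mt:CoI, whose product holds the site at which oxygen is reduced, had 26895, 28751 and 31223 TPM in batch 2 at 10%, 20% and 40% oxygen. In batch 1 mt:CoI had 3221 and 3516 TPM at 10% and 3154 and 3554 TPM at 20%. The order of these 2 messages against mt:CoII, whose product takes electrons from cytochrome c, differed between batches. In batch 2 mt:CoII had 48918, 60373 and 52504 TPM at 10%, 20% and 40% oxygen, above mt:CoI in all 3 libraries. In batch 1 mt:CoII had 2352 and 2568 TPM at 10% and 2011 and 2376 TPM at 20%, below mt:CoI in all 4 libraries.

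The message mt:Cyt-b, the subunit of complex III that carries its b-type haem groups, had 36251, 45957 and 39946 TPM in batch 2 at 10%, 20% and 40% oxygen. In batch 1 it had 1846 and 1877 TPM at 10% and 1828 and 2051 TPM at 20%, so that it ranked above mt:CoI in batch 2 and below it in batch 1. The message mt:ATPase6, the subunit that forms the proton path of ATP synthase, had 17762, 20570 and 20111 TPM in batch 2 at 10%, 20% and 40% oxygen. In batch 1 mt:ATPase6 had 763 and 780 TPM at 10% and 719 and 837 TPM at 20%. In all 3 batch 2 libraries both messages were above every batch 1 library.

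The 7 complex I messages encode subunits of its proton-pumping membrane arm and were spread over a wide range of levels. The highest was mt:ND3, with 13827, 24694 and 21732 TPM in batch 2 at 10%, 20% and 40% oxygen, against 1067 and 1014 TPM in batch 1 at 10% and 988 and 1158 TPM in batch 1 at 20%. Next came mt:ND1 and mt:ND4, whose order differed between batches. The message mt:ND1 stood at 2465, 3961 and 3977 TPM in batch 2 at 10%, 20% and 40% oxygen and 478 to 553 TPM in batch 1. The message mt:ND4 stood at 2699, 4403 and 5213 TPM in batch 2 in the same order and at 276 to 314 TPM in batch 1. For these messages the batch 2 library at 10% oxygen was the lowest of its batch. The message mt:ND5 stood at 1871, 3948 and 2899 TPM in batch 2 and at 156 to 203 TPM in batch 1. A gap separates these from the other complex I messages. The first mRNA after the control region, mt:ND2, stood at 90.8, 168 and 115 TPM in batch 2 and 7.67 to 12.5 TPM in batch 1. The lowest were mt:ND6, at 13.2 to 21.2 TPM in batch 2 and 0.739 to 3.05 TPM in batch 1, and mt:ND4L, at 11.5 to 16.3 TPM in batch 2 and 0.834 to 5.52 TPM in batch 1. The counts behind mt:ND6 were 100 to 155 in batch 2 and 6 to 25 in batch 1, and those behind mt:ND4L were 23 to 33 in batch 2 and 2 to 13 in batch 1, so counting error is large for both. Thus mt:ND4L stood far below mt:ND4, the neighbour it overlaps. Its annotated length is 291 bases, and the part that fragment length and read assignment play in its level was not tested.

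The order of the 13 mRNAs by TPM was close between libraries. Spearman's rho between any pair of libraries was 0.929 to 1 over the 13 mRNAs, which is a description, since genes of 1 genome share their library and depth.

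**Figure D1:**
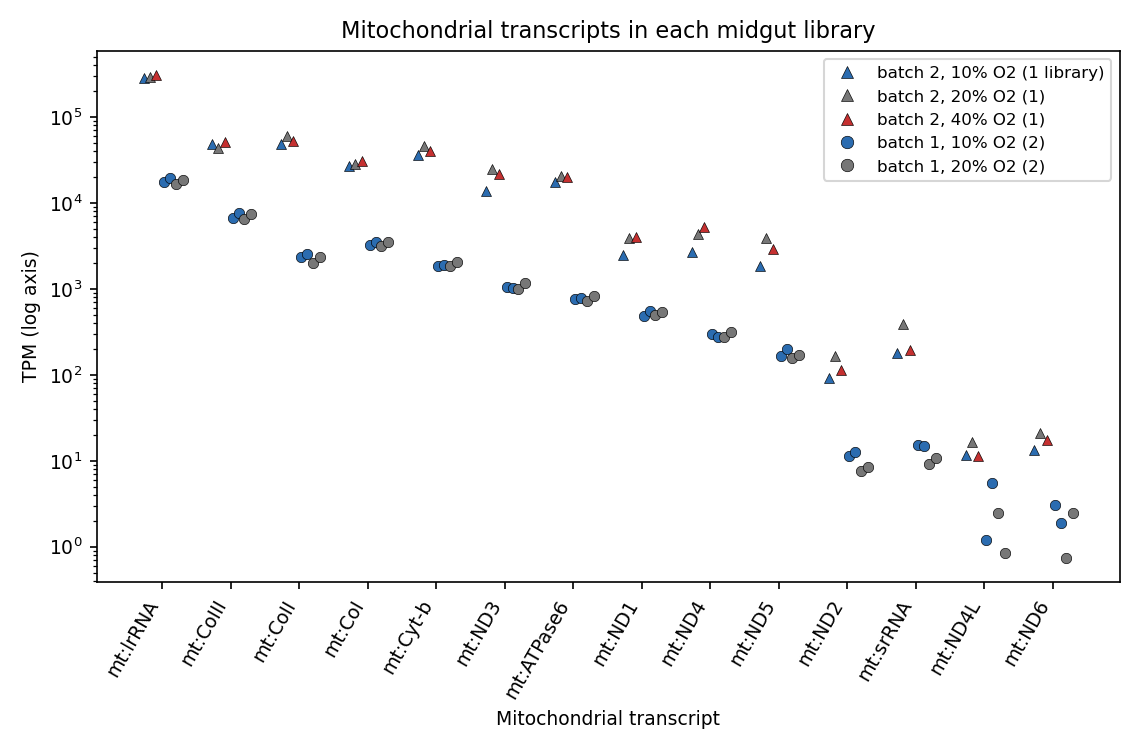
Levels of the 14 tested mitochondrial transcripts in each library, in TPM on a log axis; triangles are batch 2 and circles batch 1, coloured by oxygen level. Every transcript is higher in all 3 batch 2 libraries than in any batch 1 library, and mt:lrRNA, at 16484 to 310383 TPM, stands above all mRNAs.

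Mitochondrial transcripts stood far higher in batch 2 than in batch 1 at the same oxygen levels, and the batches also differed in which messages made up the mitochondrial mRNA. Of all counts, 61.0%, 64.0% and 71.0% came from the mitochondrial genome in batch 2 at 10%, 20% and 40% oxygen. In batch 1 the shares were 4.29% and 4.68% at 10% and 4.10% and 4.52% at 20%. The widest exact Clopper-Pearson 95% interval of these shares spans 0.044 percentage points and covers counting error only. Most of these counts were mt:lrRNA, at 67.2% to 69.7% of mitochondrial counts in batch 2 and 61.1% to 62.6% in batch 1. Mitochondrial mRNAs alone were 18.5%, 21.0% and 22.2% of all counts, rRNA included, in batch 2 at 10%, 20% and 40% oxygen. In batch 1 they were 1.59% to 1.76%.

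In edgeR's quasi-likelihood test on the 6 libraries at 10% and 20% oxygen, with oxygen as a covariate, all 14 tested members rose in batch 2. The background is wide: 28.7% of the 9278 features tested were higher in batch 2 and 55.6% differed, at a Benjamini-Hochberg adjusted p below 0.05, the threshold for a call throughout. The members nevertheless stood near the top of the list, at ranks 8 (mt:ATPase6) to 201 (mt:ND4L) of 9278 by log2 fold change. Only 30 features, members included, lay above the members' median of 5.30, while the median over all features was -0.03. The 12 tested mRNAs had a median log2 fold change of 5.09, batch 2 over batch 1, and ranged from 3.86 to 6.13.

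The size of the difference varied among members, also within 1 complex. The log2 fold change of mt:ATPase6 was 6.13 (SE 0.09, edgeR adjusted p = 3.1e-05) and that of mt:Cyt-b 5.88 (SE 0.11, adjusted p = 3.1e-05). Within complex IV, mt:CoII changed by 6.05 (SE 0.13) on the log2 scale, against 4.49 (SE 0.10) for mt:CoI and 4.19 (SE 0.11) for mt:CoIII. Within complex I, mt:ND3 rose by 5.57 (SE 0.18), mt:ND5 by 5.44 (SE 0.28), mt:ND2 by 5.16 (SE 0.31), mt:ND4 by 5.02 (SE 0.15), mt:ND6 by 4.59 (SE 0.48), mt:ND1 by 4.08 (SE 0.15) and mt:ND4L by 3.86 (SE 0.69). The rRNAs rose by 5.43 (mt:lrRNA, SE 0.14) and 5.98 (mt:srRNA, SE 0.38). The call for mt:ND4L was lost without replicate 3 at 20% oxygen, where its log2 fold change was 3.18 and its edgeR adjusted p was 0.0701, against 0.0066 in the fit of all 6. Scaling by library totals moved the median of all features to -1.48 and that of the 12 mRNAs to 3.64. All 14 members were still called higher there, where 735 of 9278 features were called higher and 7009 lower. DESeq2 called all 14 higher too, where 2681 of 9278 features were called higher and 56.3% were called in either direction.

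**Figure D2:**
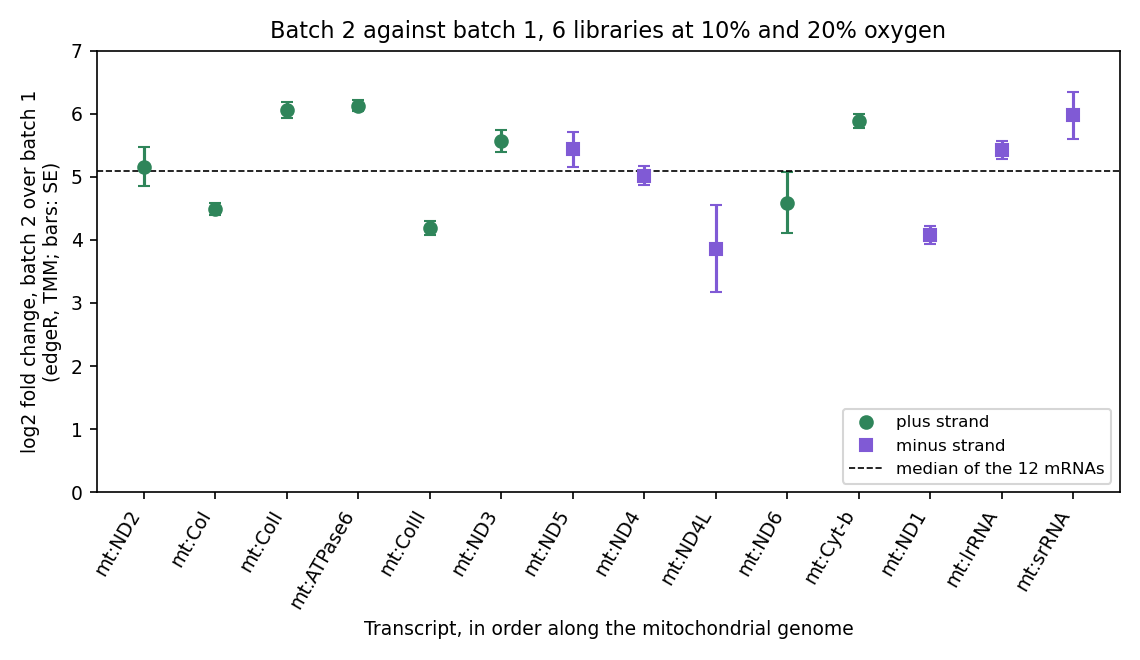
Log2 fold change of each tested mitochondrial transcript, batch 2 over batch 1, from edgeR with TMM scaling (a scaling that assumes most features do not change) in the 6 libraries at 10% and 20% oxygen; bars are SE, and transcripts are in genome order with the plus strand as circles and the minus strand as squares. All values lie above 3.8; relative to the summed mitochondrial mRNAs, mt:CoI, mt:CoIII, mt:ND1, mt:ND4L and mt:ND6 lie below 0.

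The make-up of the mitochondrial mRNA differed between batches in 7 of its 9 abundant messages without overlap of the libraries. On the matching scale, relative to the summed mitochondrial mRNAs, 97.4% of all features were called between batches, so this count is given as a description. By share of mitochondrial mRNA counts, mt:CoI held 26.3%, 24.3% and 26.4% in batch 2 at 10%, 20% and 40% oxygen and 35.5% to 36.1% in batch 1. Its complex IV partner mt:CoIII held 20.1%, 15.4% and 18.4% in batch 2 in the same order and 30.4% to 31.5% in batch 1. Both shares were thus smaller in every batch 2 library. In the other direction, mt:CoII held 16.3%, 17.1% and 15.5% in batch 2 and 7.52% to 8.51% in batch 1. Likewise mt:Cyt-b held 24.5%, 26.7% and 23.5% in batch 2 and 13.0% to 14.3% in batch 1. These messages of complexes IV and III were larger parts of the mRNA in every batch 2 library. The shares of mt:ATPase6 were 5.71% to 5.81% in batch 2 and 2.51% to 2.7% in batch 1, and those of mt:ND3 were 1.28% to 1.97% in batch 2 and 0.971% to 1.16% in batch 1. The share of mt:ND1 was lower in batch 2, at 1.30% to 1.83%, against 2.78% to 3.02% in batch 1. For mt:ND4 and mt:ND5 the shares of the batches overlapped.

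Summed over complexes, complex IV messages held 62.7%, 56.8% and 60.4% of mitochondrial mRNA counts in batch 2 at 10%, 20% and 40% oxygen, against 74.2% to 75.7% in batch 1. The ratio of mt:CoIII to its upstream neighbour mt:ATPase6 in TPM was 2.74, 2.12 and 2.53 in batch 2 at 10%, 20% and 40% oxygen and 8.82 to 9.77 in batch 1. The ratio of mt:CoI to mt:CoII was 0.550, 0.476 and 0.595 in batch 2 and 1.37 to 1.57 in batch 1. On the minus strand, the ratio of mt:lrRNA to its near neighbour mt:ND1 was 114, 73.5 and 78.0 in batch 2 and 32.9 to 37.2 in batch 1. Some other near neighbours on 1 strand had ratios that overlapped between batches. The ratio of mt:CoII to mt:ATPase6 was 2.75, 2.93 and 2.61 in batch 2 and 2.8 to 3.29 in batch 1, and that of mt:ND4 to mt:ND5 was 1.44, 1.12 and 1.8 in batch 2 and 1.37 to 1.82 in batch 1. Neighbours on 1 strand thus kept similar ratios across batches in some pairs and not in others.

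**Figure D3:**
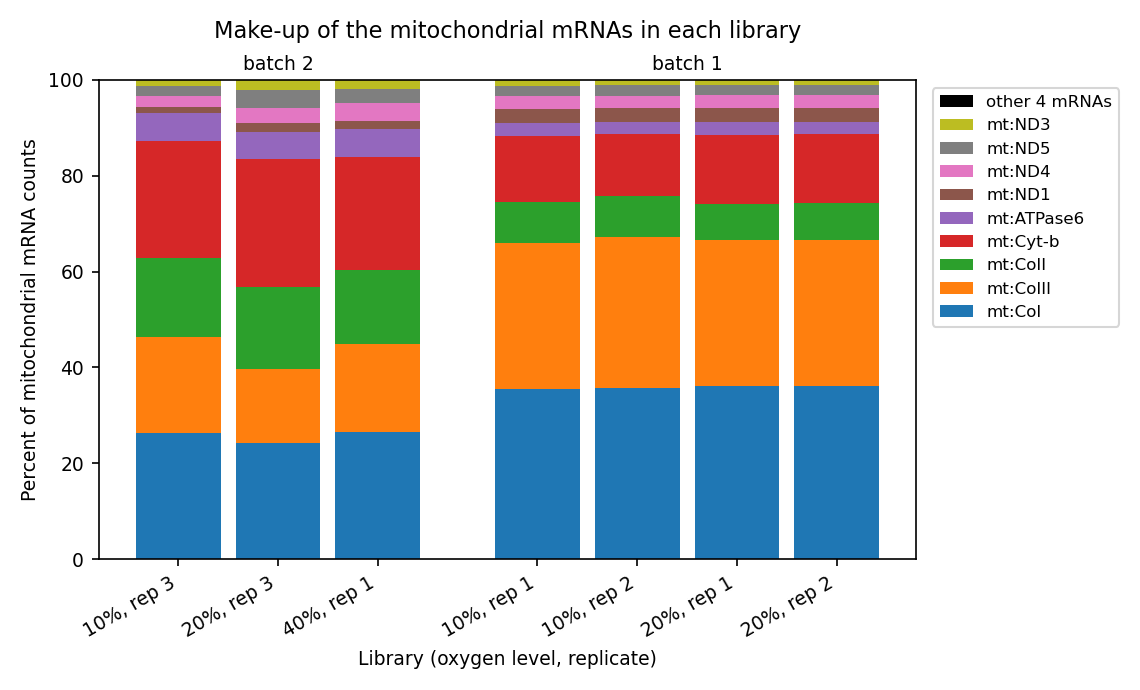
Share of each mitochondrial mRNA among all mitochondrial mRNA counts of a library, in percent, stacked to 100; batch 2 is on the left and batch 1 on the right. The bars for mt:CoII and mt:Cyt-b are larger in the 3 batch 2 libraries, and those for mt:CoI and mt:CoIII are smaller.

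The same edgeR fit scaled to the summed mitochondrial mRNA counts tests these unequal changes; on this scale the median of all features was -5.02. Because 97.4% of features were called, the adjusted p hardly differs from the unadjusted one, and values near the threshold are weak. Relative to the summed mRNAs, mt:ATPase6 rose by 1.13 (SE 0.07), mt:CoII by 1.05 (SE 0.09), mt:Cyt-b by 0.88 (SE 0.09) and mt:ND3 by 0.57 (SE 0.16, edgeR adjusted p = 0.0155) in batch 2. The rRNAs lay close to the threshold, mt:lrRNA at 0.43 (SE 0.16, edgeR adjusted p = 0.0399) and mt:srRNA at 0.97 (SE 0.33, adjusted p = 0.0313), and no change is read from them. In batch 2 mt:ND1 fell by 0.92 (SE 0.12), mt:CoIII fell by 0.80 (SE 0.13) and mt:CoI fell by 0.50 (SE 0.11, edgeR adjusted p = 0.0054). The other 5 members did not pass, with log2 values of 0.02 for mt:ND4, 0.16 for mt:ND2, 0.44 for mt:ND5, -0.39 for mt:ND6 and -1.09 for mt:ND4L. The muscle, tracheal and midgut markers and the fragment lengths given above moved with this difference. In the main edgeR fit with TMM scaling, 28.7% of all features were called higher in batch 2 and 26.9% lower. There, 15 of 16 muscle markers and 7 of 7 tested tracheal markers were called higher in batch 2. The median log2 fold changes of these 2 lists were 4.06 and 3.58. Of 19 midgut markers, 12 were called lower and 2 higher in batch 2. Their part in the make-up of the mitochondrial mRNA was not tested.

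Between 10% and 20% oxygen no mitochondrial transcript passed the test. In the edgeR fit of 6 libraries with batch as a covariate, 0 of 14 members were called, 0 had an unadjusted p below 0.05, and DESeq2 called 0. The background in this comparison was 0.0% of 9278 features called by edgeR (584 features, or 6.29%, at an unadjusted p below 0.05) and 1.34% by DESeq2. The 12 mRNAs had a median log2 fold change, 10% over 20%, of -0.04, against 0.01 over all features, and 5 lay above 0. The values farthest from 0 were -0.29 for mt:ND3 (SE 0.16, edgeR adjusted p = 0.809) and 0.31 for mt:ND4L (SE 0.70, adjusted p = 0.962). The large rRNA stood at 0.06 (SE 0.13), mt:CoI at -0.02 (SE 0.09), mt:CoIII at 0.09 (SE 0.11), mt:Cyt-b at -0.14 (SE 0.10) and mt:ATPase6 at -0.06 (SE 0.08).

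The share of counts from the mitochondrial genome differed by -1.37 percentage points, 10% minus 20%, averaged over the batches (exact permutation within batch, two-sided, p = 0.833). The difference was -2.91 points in batch 2, which has 1 library of each group, and 0.175 points in batch 1. The rRNA share of mitochondrial counts was 69.8% at 10% and 67.2% at 20% in batch 2, and 62.0% and 62.6% at 10% against 61.1% and 61.2% at 20% in batch 1. The 40% library held 68.8%, between the other libraries of batch 2. The rRNA share was thus higher at 10% than at 20% in both batches, by 1.84 points on average. The libraries did not overlap in batch 1, while batch 2 has 1 library of each group. The exact permutation p of 0.167 is the smallest that the 12 arrangements within batches allow, so this design cannot reach the threshold. The share of mt:Cyt-b among mitochondrial mRNA counts was lower at 10% in both batches, with a mean difference of -1.49 points and the same exact permutation p of 0.167. It was 24.5% at 10% and 26.7% at 20% in batch 2, and 13.9% and 13.0% at 10% against 14.3% and 14.2% at 20% in batch 1. No p is adjusted over the mRNAs here, since none could pass. Among the 13 mRNAs mt:Cyt-b had the smallest p, with mt:ND1 next at 0.333 in the same permutation. It is thus the extreme of a set, and no oxygen difference is read from it.

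Within batches the difference between 10% and 20% oxygen was not alike for all members. In batch 2 all 7 complex I messages had a log2 fold change below 0, 10% over 20%, at -0.98 for mt:ND5, -0.79 for mt:ND2, -0.74 for mt:ND3, -0.61 for mt:ND4, -0.58 for mt:ND1, -0.55 for mt:ND6 and -0.44 for mt:ND4L. In batch 1 the same messages stood at 0.13, 0.54, -0.06, -0.06, -0.04, 0.62 and 0.93 in that order. Complex I messages held 6.96% of mitochondrial mRNA counts at 10% and 10.8% at 20% in batch 2. In batch 1 they held 8.93% and 8.75% at 10% and 8.86% and 8.70% at 20%, which overlap. Members outside complex I also lay below 0 in batch 2, so values below 0 there are not particular to complex I. They were mt:srRNA at -1.003 in batch 2 and 0.57 in batch 1, mt:Cyt-b at -0.24 and -0.09, mt:CoII at -0.19 and 0.13, mt:ATPase6 at -0.10 and -0.04, and mt:CoI at -0.0026 and -0.03. Above 0 in batch 2 were mt:CoIII, at 0.27 in batch 2 and 0.01 in batch 1, and mt:lrRNA, at 0.05 and 0.06.

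The rRNA mt:srRNA, which adjoins the control region, and mt:ND2, the first mRNA on its other side, differed in opposite directions in the batches. In batch 2 mt:srRNA had 2613 counts at 10% and 5523 at 20%, while in batch 1 it had 246 and 233 at 10% and 146 and 171 at 20%. Likewise mt:ND2 had 1902 counts at 10% and 3461 at 20% in batch 2, and 266 and 289 at 10% against 179 and 197 at 20% in batch 1. In an oxygen by batch interaction fitted with edgeR, the difference of log2 fold changes, batch 2 minus batch 1, was -1.57 for mt:srRNA (adjusted p = 0.173), -1.32 for mt:ND2 (adjusted p = 0.189) and -1.12 for mt:ND5 (adjusted p = 0.363). None of 9278 features passed for the interaction (0.0% called; 975 features, or 10.5%, at an unadjusted p below 0.05). The interaction was chosen after seeing the data, and batch 2 has 1 library at each level.

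**Figure D4:**
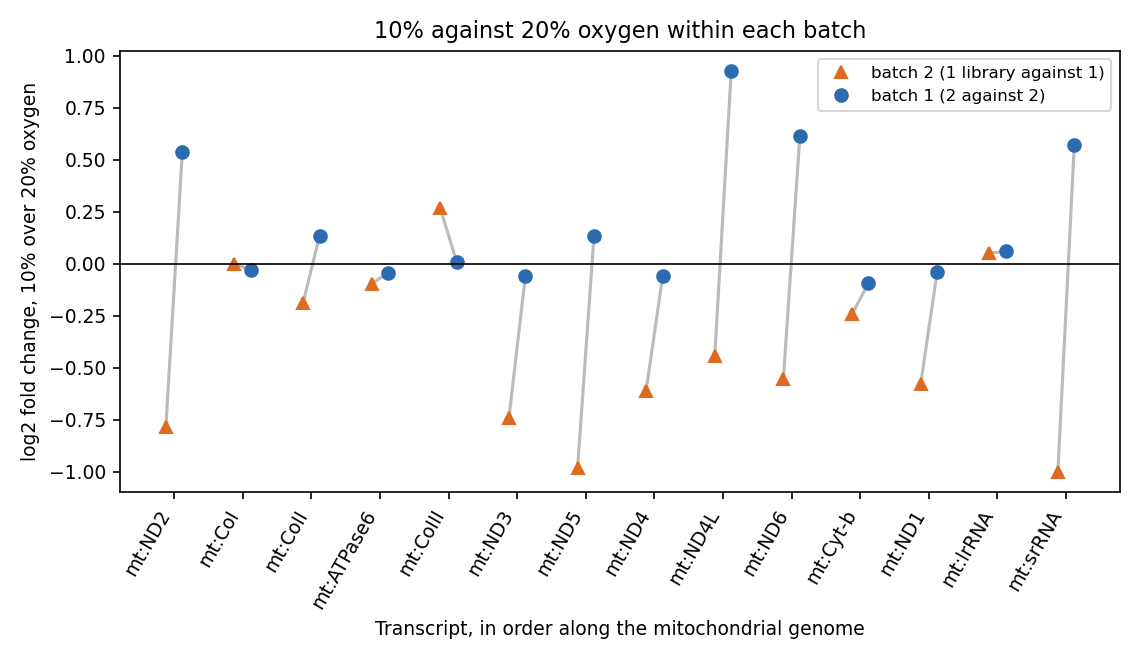
Log2 fold change, 10% over 20% oxygen, of each tested mitochondrial transcript within batch 2 (triangles, 1 library of each) and within batch 1 (circles, 2 of each), in genome order. The pairs for mt:ND2, mt:CoII, mt:ND5, mt:ND4L, mt:ND6 and mt:srRNA lie on opposite sides of 0, while mt:lrRNA lies at 0.05 and 0.06; no difference passed the adjusted threshold.

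In the 40% oxygen library mitochondrial transcripts made up a larger share of counts than in the other libraries of its batch, but no member passed the main test against 20% or 10% oxygen. This group is 1 library, so its own spread is unknown and is taken from the other libraries. The mitochondrial share of TPM set the 40% library less far apart from its batch than the share of counts did, at 48.2%, 52.8% and 53.9% in batch 2 at 10%, 20% and 40% oxygen. Per 100 non-mitochondrial counts, mt:lrRNA had 109, 119 and 169 counts in batch 2 at 10%, 20% and 40% oxygen. On the same scale the summed mitochondrial mRNAs had 47.4, 58.1 and 76.6 counts in batch 2 at 10%, 20% and 40% oxygen. Of the 12 tested mRNAs, mt:ND2, mt:ND5 and mt:ND4L were below batch 2 at 20% on this scale, at 0.916, 0.968 and 0.999 times its level, and the other 9 were above. In TPM, which divides by all transcripts, the library at 40% was above batch 2 at 20% for mt:CoI, mt:CoIII, mt:ND4 and mt:ND1, at 1.09, 1.16, 1.18 and 1.004 times its level. It was below for the 8 other tested mRNAs, at 0.685 times for mt:ND2 and 0.978 times for mt:ATPase6. Which messages stood higher at 40% than at 20% thus differed between these scales. Against batch 2 at 10%, the tested mRNAs stood at 1.48 to 2.71 times its level per non-mitochondrial count. In TPM they stood at 0.992 to 1.93 times its level, with only mt:ND4L below the 10% library. Beside these values, summed midgut markers were lowest in the 40% library and its implied fragment length was the shortest, as given above, and their part was not tested.

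Against 20% oxygen, edgeR called 0 of 14 members at 40%, on a background of 3.18% of 10068 features called and 1.42% called higher. At an unadjusted p below 0.05 there were 7 of 14 members, against 21.0% of all features. DESeq2 called 7 members higher, against 9.65% of features called in either direction. With TMM scaling all 12 mRNAs had a log2 fold change above 0, 40% over 20%, and a median of 0.56, against -0.03 over all features. Without TMM factors the median of all features was -0.40, that of the mRNAs was 0.19, and 9 of 12 lay above 0. Relative to the summed mitochondrial mRNAs, 7 of 12 lay above 0, but that scale removes any change the mRNAs share. It moved the median of all features to -0.54 and describes make-up only. Values below are from the main fit with TMM unless stated. The highest value was mt:ND4, at 0.90 (SE 0.21, edgeR adjusted p = 0.0939). The message mt:CoI stood at 0.59 (SE 0.14, adjusted p = 0.0908), mt:ATPase6 at 0.52 (SE 0.12, adjusted p = 0.0865), mt:CoIII at 0.65 (SE 0.16, adjusted p = 0.102) and mt:Cyt-b at 0.34 (SE 0.14, adjusted p = 0.262) by edgeR. The rRNAs stood at 0.58 (mt:lrRNA, SE 0.17, edgeR adjusted p = 0.146) and -0.03 (mt:srRNA, SE 0.51). The median of the mRNAs was 0.37 without replicate 3 at 10% oxygen and 1.08 without replicate 3 at 20%, the other libraries of batch 2.

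Against 10% oxygen, edgeR called 0 of 14 members at 40%, on a background of 1.15% of 10068 features. There were 8 members at an unadjusted p below 0.05, against 19.7% of features. DESeq2 called 8 members higher, against 8.09% of features called in either direction. The mRNAs had a median log2 fold change of 0.57, 40% over 10%, against -0.01 over all features, and all 12 lay above 0 with TMM, while 10 did without TMM factors and 6 relative to the summed mitochondrial mRNAs. On that last scale no member was called, against 29.7% of features. The highest was again mt:ND4, at 1.15 (SE 0.22, edgeR adjusted p = 0.0791), followed by mt:ND3 at 0.91 (SE 0.26, adjusted p = 0.149) and mt:ND1 at 0.90 (SE 0.22, adjusted p = 0.114). Without replicate 3 at 10% oxygen mt:ND3 stood at 0.47 and mt:ND1 at 0.55, below mt:CoIII at 0.73 and mt:CoI at 0.63. The message mt:ATPase6 stood at 0.58 (SE 0.12, edgeR adjusted p = 0.0863) and mt:lrRNA at 0.53 (SE 0.17, adjusted p = 0.189). Both comparisons use the same 40% library, so their values are not independent.

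**Figure D5:**
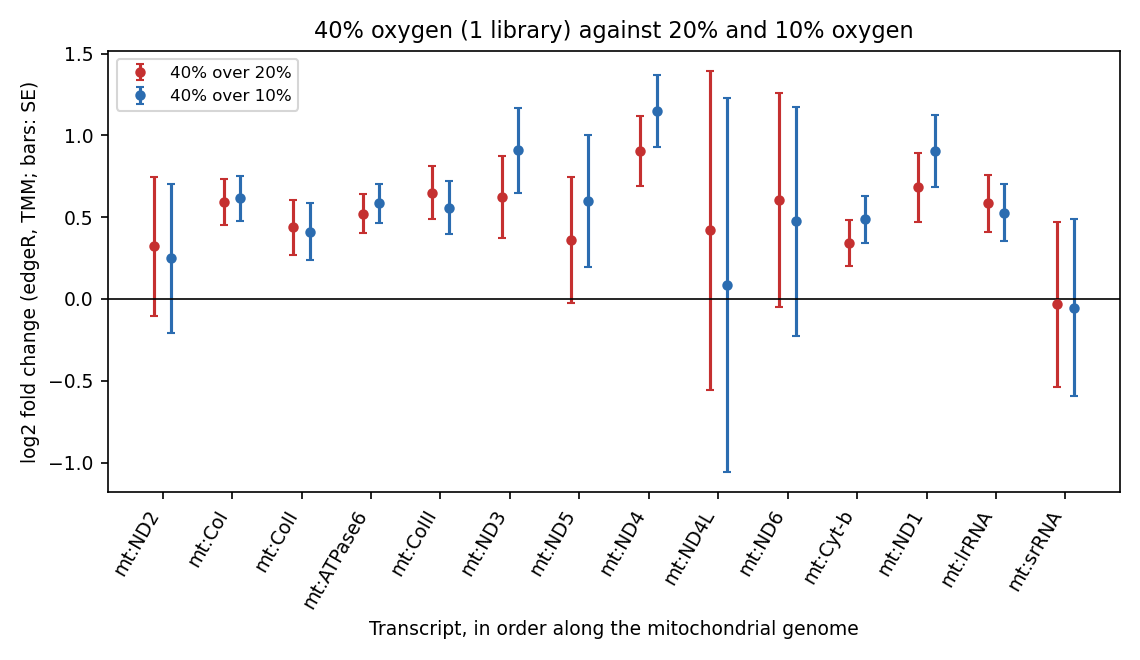
Log2 fold change of each tested mitochondrial transcript at 40% oxygen (1 library) over 20% and over 10% oxygen, from edgeR with TMM scaling and batch as a covariate; bars are SE. All 12 mRNAs lie above 0 in both, with medians of 0.56 and 0.57, but 9 and 10 of 12 do without TMM factors, and none passed the adjusted threshold.

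Nuclear genes for mitochondrial transcription and RNA handling were set beside the members, from a list of 23 symbols of which 22 matched. Between 10% and 20% oxygen 0 of 21 tested were called, with a median log2 fold change of -0.03. The polymerase PolrMT stood at 0.06 (SE 0.10), the DNA-packaging and transcription factor TFAM at -0.09 (SE 0.11) and the initiation factor mtTFB2 at 0.17 (SE 0.13), 10% over 20%. The same comparison gave -0.03 (SE 0.12) for bsf, which stabilises mitochondrial mRNAs, -0.07 (SE 0.17) for its RNA-binding partner SLIRP1, -0.30 (SE 0.15) for the RNA helicase Suv3 and 0.11 (SE 0.11) for the exoribonuclease PNPase.

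Between batches, 5 of 21 tested genes of this list were called higher in batch 2 and 6 lower, against 28.7% and 26.9% of all features. Both counts are near these background shares, so no difference is read for the list as a set. The median of the list was -0.05. The higher genes were SLIRP1 at 1.17 (SE 0.18), SLIRP2 at 1.14 (SE 0.27), mtTFB1 at 0.81 (SE 0.21), mtSSB at 0.61 (SE 0.13) and scu at 0.45 (SE 0.09), batch 2 over batch 1. On library totals, which move the median of all features to -1.48, these 5 stood at -0.28, -0.31, -0.63, -0.84 and -0.999 in that order. Of these, mtTFB1 is the fly relative of the enzyme that methylates the small mitochondrial rRNA in mammals, mtSSB binds single-stranded mitochondrial DNA and scu is part of the RNase P that frees tRNAs. The lower genes were Suv3 at -0.99 (SE 0.17), bsf at -0.85 (SE 0.13), the catalytic subunit of the mitochondrial DNA polymerase PolG1 at -0.78 (SE 0.18), the protease Lon at -0.74 (SE 0.08), PolrMT at -0.65 (SE 0.11) and PNPase at -0.54 (SE 0.12). TFAM stood at -0.01 (SE 0.12) and mtTFB2 at -0.05 (SE 0.14), neither called. As counts per M non-mitochondrial counts, PolrMT had 8.68, 9.43 and 9.77 in batch 2 at 10%, 20% and 40% oxygen, against 13.1 to 16.4 in batch 1. TFAM had 19.4, 22.4 and 16.0 in batch 2 and 19.8 to 26.8 in batch 1, so the batches overlapped for TFAM and not for PolrMT. SLIRP1 overlaps anox and mtTFB1 overlaps Ccdc56 on the same strand, so their counts are uncertain. In the same unit mtTFB1 had 30.3, 71.5 and 42.0 in batch 2 and 26.8 to 31.9 in batch 1, so the batches overlapped. Ccdc56 had 43.1, 17.1 and 39.6 in batch 2 and 25.6 to 32.7 in batch 1. The sum of both was 73.4, 88.6 and 81.6 in batch 2 and 54.2 to 59.5 in batch 1.

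At 40% oxygen 2 of 22 tested genes of this list were called against 20%, on the background of 3.18% of features, and the median of the list was -0.21. One was scu, at -0.92 on the log2 scale (SE 0.14, edgeR adjusted p = 0.0471). As counts per M non-mitochondrial counts it had 115, 154 and 78.5 in batch 2 at 10%, 20% and 40% oxygen, and 101 and 87.8 at 10% against 111 and 121 at 20% in batch 1. Its call was lost in each of 6 fits that left out 1 library, with edgeR adjusted p of 0.0762 to 0.121, and in the fit with no batch term. The other was PolG2, the accessory subunit of the DNA polymerase (2L, 13831482 to 13833105), which had 0 counts per M in both batch 2 libraries at 10% and 20% and 20.1 at 40%. In batch 1 PolG2 had 8.93 and 8.87 at 10% and 0 in both libraries at 20%. It overlaps GatC on the same strand. The sum of both genes was 14.7, 16.7 and 20.1 in batch 2 at 10%, 20% and 40% oxygen and 8.87 to 9.28 in batch 1, so the counts of PolG2 alone are uncertain. Against 10% oxygen 1 of 22 genes was called, again PolG2, on the background of 1.15% of features. The polymerase PolrMT stood at 0.13 (SE 0.16) and TFAM at -0.43 (SE 0.18), 40% over 20%, neither called.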

How the data were processed

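RNA of 7 midgut libraries was measured by strand-specific mRNA sequencing on a DNBSEQ platform, per the labels' protocols. The authors deposited 1 transcript table per library with expected counts (estimated reads per transcript), TPM and effective lengths, per the file headers, and a table pairing transcripts with genes. The submitters' processing notes list STAR 2.7.11b and Salmon 1.10.3. The genome build and the settings of both were not given in the sources used here. Every one of 41539 transcripts has the length that Ensembl 115 gives them on BDGP6.54, so positions come from that annotation. No genome sequence was used here, so no sequences are shown.

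Expected counts and TPM were summed per gene, and counts were rounded to whole numbers (100% of member counts were whole as deposited). Tests used edgeR 4.0.16 (R 4.3.3), quasi-likelihood, with TMM, the filterByExpr filter and batch as covariate; DESeq2 1.42.0 was an alternative. The comparison of 10% with 20% oxygen and the batch comparison used 6 libraries, and comparisons with 40% used 7. The p-values were Benjamini-Hochberg adjusted over all features tested, and SE is implied by the test statistic. The fits were checked on simulated data. Shares were compared by exact permutation of oxygen labels within batch. All pairs of libraries differed by more than counting noise (chi-square per degree of freedom 35.1 or more). The edgeR tests rest on depths of 19.22 to 22.22 M counts.

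Every mRNA and rRNA member is named; tRNAs would be named at 10 counts or more. Marker and pathway lists were given as symbols, matching 16 of 16 for muscle, 8 of 9 for trachea, 11 of 12 for ovary, 8 of 8 for Malpighian tubule, 6 of 6 for fat body, 19 of 20 for midgut and 22 of 23 for mitochondrial transcription and RNA handling. Of the last list, called genes and a fixed set of factors are named. Summed ovary, tubule and fat body markers were 350 to 3223, 167 to 492 and 32.3 to 151 counts per M non-mitochondrial counts. Members and lists were chosen with earlier results of these data known.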

Additional observations from a re-analysis of the deposited data

How the results depend on the processing

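Counts of members called kept their value under the alternatives run, with 5 exceptions: DESeq2 called 7 members for 40% against 20% oxygen and 8 for 40% against 10%, scaling to the summed mitochondrial mRNAs called 9 for batch 2 against batch 1, dropping the filter on low counts called 15 there by adding mt:ATPase8, and leaving out replicate 3 at 20% called 13; the cause was not tested. Without the filter on low counts, 2539 of 13742 features were called higher in batch 2, and counts of 0 to 7 limit mt:ATPase8. The mitochondrial share, 10% minus 20%, was 0.175 points in batch 1 alone and -1.47 to 0.175 points when 1 library was left out. The rRNA share difference was 1.16 to 1.99 points when 1 library was left out. With the replicate number as a block it was 1.62 points (exact permutation p = 0.25), the mitochondrial share difference was -0.854 points (exact permutation p = 1), and 0 members were called. Deviations from the mean of the oxygen group, taken across genes, correlated at 0.384, 0.415 and 0.693 between same-numbered libraries at 10% and 20%. Different numbers within batch 1 correlated at 0.476 and 0.383. After removal of batch, the deviations of libraries numbered 1 and 2 showed r = -0.0361. That is 1 value from 2 libraries per group, so it cannot settle whether the numbers pair libraries within batch 1. The block changed no call. Relative to the summed mitochondrial mRNAs, values that turned below 0 were -0.50 for mt:CoI, -0.80 for mt:CoIII, -0.92 for mt:ND1, -1.09 for mt:ND4L and -0.39 for mt:ND6 between batches, -0.075 for mt:CoII, -0.17 for mt:Cyt-b, -0.18 for mt:ND2, -0.073 for mt:ND4L and -0.15 for mt:ND5 for 40% over 20%, and -0.15 for mt:CoII, -0.0067 for mt:CoIII, -0.076 for mt:Cyt-b, -0.31 for mt:ND2, -0.48 for mt:ND4L, -0.12 for mt:ND6 and -0.035 for mt:lrRNA for 40% over 10%, with mt:srRNA lowest at -0.53 for 40% over 20% and -0.61 for 40% over 10%; mt:CoI was 0.027 for 10% over 20%. Library totals without TMM gave -0.026 for mt:Cyt-b, -0.053 for mt:ND2, -0.013 for mt:ND5, -0.23 for PolrMT and -0.15 for SLIRP1 for 40% over 20%, -0.12 for mt:ND2 and -0.29 for mt:ND4L for 40% over 10%, and -0.28 for SLIRP1, -0.31 for SLIRP2, -0.84 for mtSSB, -0.63 for mtTFB1 and -0.999 for scu between batches. With no batch term, 10% over 20% was -0.18 for mt:CoII, -0.71 for mt:ND2, -0.28 for mt:ND4L, -0.47 for mt:ND6, -0.95 for mt:srRNA and 0.037 for SLIRP1, while mt:srRNA was 1.1 for 40% over 20% and 2.05 for 40% over 10%, and PolrMT was -0.35 for 40% over 20%. Length offsets gave -0.043 for mt:ND4L (40% over 10%), and DESeq2 gave 0.0025 for mt:srRNA (40% over 20%). Leaving out 1 library gave, for 10% over 20%, -0.045 to 0.0050 for mt:CoI, -0.030 to 0.13 for mt:CoII, -0.079 to 0.54 for mt:ND2, -0.44 to 0.93 for mt:ND4L, -0.41 to 0.13 for mt:ND5, -0.25 to 0.62 for mt:ND6, -0.18 to 0.57 for mt:srRNA, -0.25 to 0.11 for SLIRP1, -0.17 to 0.018 for TFAM and -0.15 to 0.070 for bsf. For 40% over 10% it gave -0.58 to 0.74 for mt:ND2, -0.84 to 0.52 for mt:ND4L, -0.10 to 1.02 for mt:ND5, -0.31 to 0.86 for mt:ND6 and -1.03 to 0.55 for mt:srRNA. For 40% over 20% it gave -0.045 to 1.28 for mt:ND2, -0.46 to 1.12 for mt:srRNA and -0.14 to 0.41 for SLIRP1, and between batches -0.13 to 0.054 for TFAM and -0.16 to 0.052 for mtTFB2. Calls over all features for 40% against 20% numbered 320 with all libraries and 0 to 69 with 1 left out, and for 40% against 10% 116 and 0 to 56. Where an arm kept 1 library, it was assumed to vary like the others. Counts of 2 to 33 limit mt:ND4L, and 6 to 155 mt:ND6.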
